A study of Mus musculus with 6 samples.

Results

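Myeloid lineage transcription factors were examined in mouse MLL-AF9 leukemia, a model of acute myeloid leukemia in which blood progenitors carry the MLL-AF9 fusion oncogene. The set was named by gene symbol and holds 9 genes, Gata2, Myb, Runx1, Cebpa, Spi1, Gfi1, Cebpb, Cebpd and Cebpe. Of these, 8 had an entry among the 26082 gene names of the expression table, each on a single line, and all 8 were among the 11130 genes tested. Spi1, which encodes PU.1, was not analysed here.

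RNA-Seq was performed on leukemia cells taken from the bone marrow of 6 leukemic mice, and the sources used here do not name the gate or sort behind these libraries. The labels give C57BL/6J as the strain and MLL-AF9 as the transduced gene in all 6. The control group (n = 3) received vehicle, and the treated group (n = 3) received 80 mg/kg DS-5272 by mouth, with the cells taken 24 h later. DS-5272 blocks MDM2 from binding the tumor suppressor p53. According to the study's methods, c-Kit+ marrow progenitors were transduced with a retrovirus and the leukemia was passed through serial transplantation before it was injected into recipients. The mice may therefore share 1 leukemia line, and the spread between mice does not include that between independent leukemias.

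Blood cells of the myeloid lineage mature under a succession of transcription factors. Gata2, Myb and Runx1 act in stem and progenitor cells. Cebpa and Gfi1 act when progenitors commit to the granulocyte and monocyte lineages, and Cebpb, Cebpd and Cebpe act in later maturation and in inflammatory responses. The C/EBP proteins are basic leucine zipper factors that bind DNA as dimers, with each other or with related factors, and they recognize similar sites, so the relative amounts of the family members matter for which dimers can form. In MLL-AF9 leukemia Myb is known to sustain self-renewal, and several of these factors also have roles outside the stage with which they are grouped here.

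Values are FPKM, fragment counts scaled to transcript length and to sequencing depth, so levels can be set side by side between genes. Between mice they also depend on how the libraries are scaled, since the FPKM sums given below differed. Values of single mice are given in the order of replicates 1, 2 and 3. Differences are given as log2 fold changes of FPKM + 1, DS-5272 against vehicle, from limma fitted across all 11130 genes, and a gene was called at a Benjamini-Hochberg adjusted p under 0.05 over these genes. In bulk RNA, a smaller number of cells of a type and less RNA per cell cannot be told apart. The FPKM sums ranged from 445316 to 501241 in vehicle mice and from 499229 to 661184 in DS-5272 mice. Sequencing depth relative to vehicle replicate 1, read from the steps between low values, was 0.808 to 1 in the vehicle libraries and 0.536 to 0.742 in the DS-5272 libraries. Ptprc and Itgam, general markers of leukocytes and of myeloid cells, were present in every mouse, from 66.0 and 140 FPKM upward. The p53 target Cdkn1a ranged from 14.8 to 28.1 FPKM with vehicle and from 32.3 to 485 FPKM with DS-5272, without overlap between the groups (log2 fold change 2.43), with an adjusted p of 0.061 from limma that became 0.014 once the replicate number was a block.

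Of the 8 factors, Cebpb and Cebpd rose and Gfi1 fell. The other 5, Gata2, Myb, Runx1, Cebpa and Cebpe, did not pass the threshold. The 3 of 8 called compare with 46.3% of all tested genes. By direction, 2 of 8 were higher beside 24.2% of all tested genes, and 1 of 8 was lower beside 22.0%, shares near or below those of all genes. At an unadjusted p under 0.05 there were 4 of 8, Cebpa included, beside 55.6%. With the replicate number as a block, 2 of 8 were called higher (30.3% of all genes) and 2 of 8 lower (24.9%). Over all genes, 2697 were called higher and 2451 lower, which became 1713 and 3555 when libraries were set to the same total and 2233 and 3179 when set to the same upper quartile. Over the 8 factors the median difference was 0.03 on the log2 scale, beside 0.04 for all tested genes. The groups did not overlap for 5 of the 8 factors, Cebpb, Cebpd, Gfi1, Myb and Cebpa, as for 61.8% of all tested genes. Of these, 2 were higher (32.1% of all genes) and 3 lower (29.7%). For a single gene the exact two-sided permutation test of 3 mice against 3 cannot go below p = 0.1, which these 5 factors reached.

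**Figure D1:**
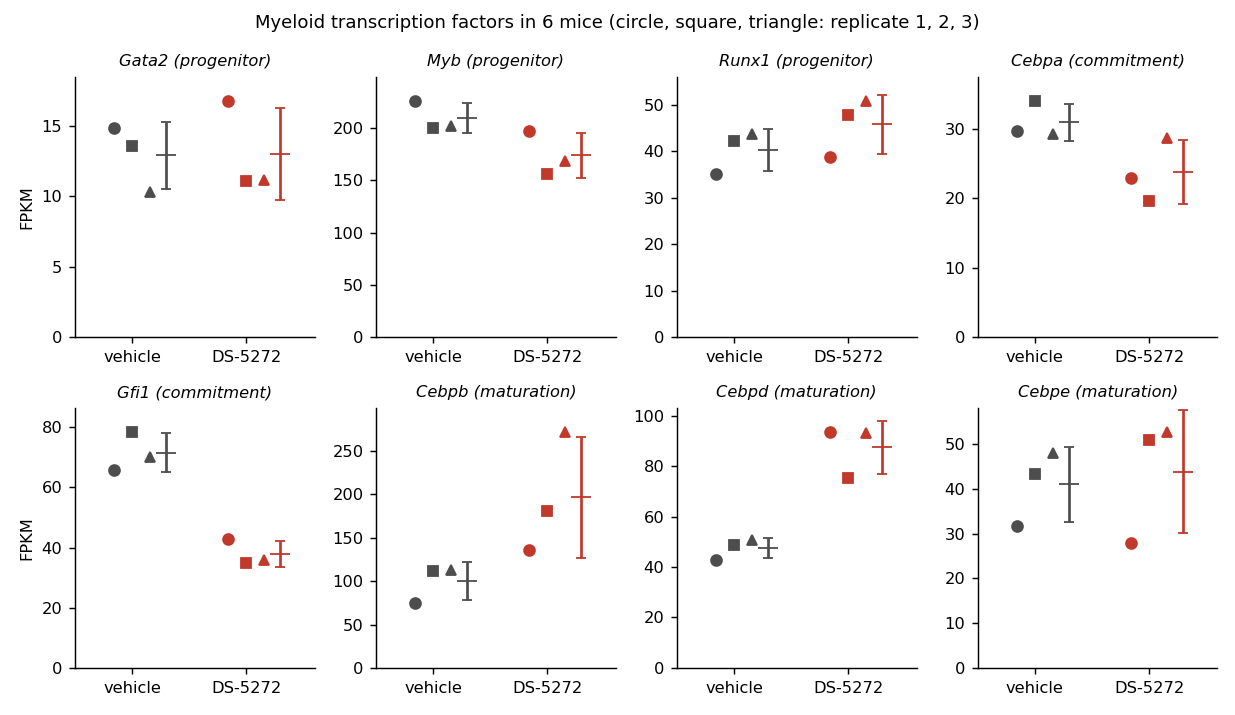
FPKM of the 8 factors in each mouse on axes that start at 0, with vehicle in grey and DS-5272 in red, circles, squares and triangles for replicates 1, 2 and 3, and the bar at the right of each group giving the mean and SD (n = 3). Cebpb (74.4 to 113 against 136 to 272 FPKM), Cebpd (43.0 to 50.7 against 75.3 to 93.7 FPKM) and Gfi1 (65.8 to 78.6 against 34.8 to 42.8 FPKM) are the factors with a called change, and Gata2, Runx1 and Cebpe overlap between the groups.

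In vehicle-treated leukemia the most abundant factor was Myb, at 210 ± 14.5 FPKM (SD, n = 3), above 96.3% of the tested genes by its mean over the 6 mice. It was followed by Cebpb at 99.6 ± 21.9, Gfi1 at 71.5 ± 6.50, Cebpd at 47.4 ± 4.0, Cebpe at 41.0 ± 8.45, Runx1 at 40.3 ± 4.53, Cebpa at 31.0 ± 2.67 and Gata2 at 12.9 ± 2.36 FPKM (SD, n = 3 each). Neighbours in this order whose ranges overlapped were Cebpb and Gfi1, Cebpd and Cebpe, and Cebpe and Runx1. With DS-5272 the order of means was Cebpb at 196 ± 69.5, Myb at 174 ± 21.4, Cebpd at 87.4 ± 10.5, Runx1 at 45.8 ± 6.32, Cebpe at 43.9 ± 13.8, Gfi1 at 37.8 ± 4.36, Cebpa at 23.7 ± 4.59 and Gata2 at 13.0 ± 3.27 FPKM (SD, n = 3 each). Cebpb and Myb overlapped in range in this group, as did Runx1, Cebpe and Gfi1.

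The sequences directly upstream of Cebpb and Cebpa are shown because these C/EBP genes differed in direction, a called rise for Cebpb and lower values without a call for Cebpa, and because each has a single RefSeq promoter entry. They are the 250 bases before the RefSeq transcription start in GRCm38.p6, on the plus strand in both cases, at chr2:167688665-167688914 for Cebpb and chr7:35119043-35119292 for Cebpa, and the capitals mark matches to the motifs searched.
Cebpb: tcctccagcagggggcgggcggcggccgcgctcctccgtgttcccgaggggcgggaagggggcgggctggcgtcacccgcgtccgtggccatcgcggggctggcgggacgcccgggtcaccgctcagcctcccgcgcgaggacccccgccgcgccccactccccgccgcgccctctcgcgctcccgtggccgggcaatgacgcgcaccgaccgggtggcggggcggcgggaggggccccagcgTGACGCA
Cebpa: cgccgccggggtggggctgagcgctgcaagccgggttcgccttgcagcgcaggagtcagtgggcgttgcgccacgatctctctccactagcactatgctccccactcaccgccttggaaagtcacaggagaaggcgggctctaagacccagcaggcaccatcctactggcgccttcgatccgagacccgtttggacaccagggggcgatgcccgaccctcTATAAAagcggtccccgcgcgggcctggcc

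Both strands were searched for a C/EBP motif with the letters TTGCNNAA, for one like the cyclic AMP response element with the letters TGACGCA, for the TATA box with the letters TATAAA, for a PU.1 motif with the letters GAGGAAG, for a RUNX motif with the letters TGTGGT and for an E2F motif with the letters TTTGGCGG. The Cebpb sequence held 1 match, TGACGCA in its last 7 bases, and 1.75% of the 32851 RefSeq promoters had that match in a window of the same length. The Cebpa sequence held 1 match, TATAAA from 30 to 25 bases before the start, found in 12.4% of promoters. Of the 9 factors, 6 had a RefSeq promoter entry (Gata2, Runx1 and Gfi1 with 2 each, Myb, Cebpa and Cebpb with 1 each). Among the other windows, that of Myb held the E2F letters from 12 to 5 bases before the start, as did 0.444% of promoters, and 1 of the 2 of Gfi1 held the C/EBP letters, as did 9.56%. No 2 matches overlapped in any of these windows. Letter matches describe the sequence and do not show that a factor binds there.

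Among the maturation factors, Cebpb encodes C/EBPβ, which drives granulocyte production under stress and many macrophage genes. It lies at chr2:167688915-167690418 in GRCm38, in 1 exon. Cebpb was at 74.4, 112 and 113 FPKM with vehicle and at 136, 181 and 272 FPKM with DS-5272. Every treated mouse was above every control mouse, and the treated mice were widely spread, with a coefficient of variation of 35.4% against 21.9% with vehicle. The log2 fold change was 0.94 (95% interval 0.27 to 1.61, adjusted p = 0.033 from limma), and in the same-numbered pairs of mice the differences were 0.86, 0.69 and 1.26. The call was lost without vehicle replicates 1, 2 or 3 (adjusted p = 0.097, 0.067 and 0.058), without DS-5272 replicates 2 or 3 (0.072 and 0.065) and with no filter on low genes (0.0635), its alternatives spanning 0.0032 (replicate block) to 0.097. Tmem189, annotated on the opposite strand, shares 20.7% of the exon bases of Cebpb and was itself at 30.5 ± 1.92 FPKM with vehicle and 55.2 ± 10.5 FPKM with DS-5272 (SD, n = 3, adjusted p = 0.0070 from limma). No source used here says whether fragments were assigned by strand, so those of the 2 genes cannot be told apart where they overlap.

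Immediate early genes, which respond within minutes to stimulation and to handling of cells, differed between mice of the same group. The mean log2(FPKM + 1) of 12 such genes was 3.78, 7.03 and 7.16 with vehicle and 5.89, 8.14 and 8.49 with DS-5272. Replicate 1 was thus the lowest in both groups, and it was also the lowest for Cebpb, by 0.59 on the log2 scale below the mean of the other 2 vehicle mice and by 0.71 below the other 2 DS-5272 mice. Of these 12 genes, 2 were called higher with DS-5272, and 10 with the replicate block, beside 24.2% and 30.3% of all tested genes. The part of the immediate early genes in the level of Cebpb was not tested.

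Cebpd encodes C/EBPδ, an acute-phase factor that is also induced as granulocytes mature, and lies at chr16:15887286-15891031 in GRCm38. Cebpd was at 43.0, 48.6 and 50.7 FPKM with vehicle and at 93.7, 75.3 and 93.2 FPKM with DS-5272. The groups were far apart relative to their spread, and replicate 1 was not low in the treated group, in contrast to Cebpb. The difference was 0.86 on the log2 scale (95% interval 0.57 to 1.16, adjusted p = 0.0039 from limma). The call held in each of the 16 alternatives, with log2 fold changes from 0.60 to 0.97 and adjusted p up to 0.023. Exons of Spidr, on the opposite strand, share 15.0% of the exon bases of Cebpd. Spidr had no line under its own name, so its level is not known here. As for Cebpb, fragments of the 2 genes cannot be told apart where they overlap.

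Cebpe encodes C/EBPε, which is required for secondary granule genes and the last steps of neutrophil maturation, and lies at chr14:54710360-54712174 in GRCm38. Its values were 31.6, 43.3 and 48.0 FPKM with vehicle and 28.0, 50.8 and 52.8 FPKM with DS-5272. The groups overlapped, and replicate 1 was the lowest on both sides, by 0.52 and 0.87 on the log2 scale below the mean of the other 2 mice. On the log2 scale the difference was 0.06 with a 95% interval from −0.59 to 0.71 (adjusted p = 0.86 from limma). Its sign depended on the scaling, at −0.20 with libraries set to the same total.

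The commitment factor Gfi1 is a zinc finger repressor that favors neutrophil over monocyte fate and lies at chr5:107716657-107726036 in GRCm38. Gfi1 was at 65.8, 78.6 and 70.3 FPKM with vehicle and at 42.8, 34.8 and 35.9 FPKM with DS-5272. All treated mice were below all control mice, with tight values in both groups. Gfi1 fell by 0.90 on the log2 scale (95% interval −1.19 to −0.61, adjusted p = 0.0033 from limma). Its mean FPKM with DS-5272 was 0.529 times the vehicle mean. The call held in each of the 16 alternatives, with adjusted p up to 0.021. A430072P03Rik, on the opposite strand, shares 3.17% of the exon bases of Gfi1 and went from 5.11 ± 0.682 to 1.52 ± 0.345 FPKM (SD, n = 3).

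Cebpa encodes C/EBPα, the factor through which progenitors enter the granulocyte and monocyte lineages, and lies at chr7:35119293-35121928 in GRCm38. Cebpa was at 29.7, 34.0 and 29.2 FPKM with vehicle and at 22.9, 19.6 and 28.7 FPKM with DS-5272. The groups did not overlap, but DS-5272 replicate 3 was only just below the lowest vehicle mouse. The log2 fold change was −0.38 (95% interval −0.75 to −0.02) with an adjusted p of 0.077 from limma. Without DS-5272 replicate 3 it was −0.52 and passed the threshold (adjusted p = 0.018), and it also passed when libraries were scaled by upper quartile, by median ratio, by total or by quantile normalization (adjusted p = 0.019, 0.036, 0.013 and 0.021). Its alternatives spanned 0.013 to 0.222.

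**Figure D2:**
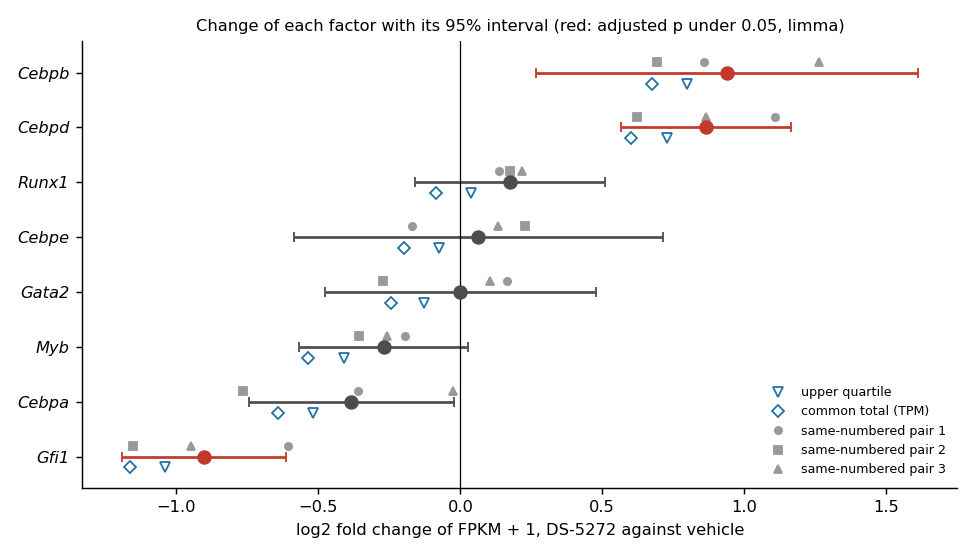
Log2 fold change of FPKM + 1 for each factor, with its 95% interval from limma (red where the adjusted p was under 0.05). Grey symbols above each interval are the differences in the 3 same-numbered pairs of mice, and open blue symbols below it are the fold changes after rescaling to a common upper quartile or a common total, which lie to the left of the value as deposited for all 8 factors. They move from above to below 0 for Cebpe under both scalings and for Runx1 under the common total. For Gata2, Myb, Cebpa and Gfi1 they lie below 0 under both, as does the value as deposited.

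Among the progenitor factors, Myb encodes c-Myb, which keeps progenitors proliferating, and lies at chr10:21124935-21160984 in GRCm38. Myb was at 226, 200 and 202 FPKM with vehicle and at 198, 156 and 169 FPKM with DS-5272. The highest treated mouse was only slightly below the lowest control mouse. The log2 fold change of −0.27 (95% interval −0.57 to 0.03) did not pass (adjusted p = 0.116 from limma), but with the replicate number as a block Myb was called lower (adjusted p = 0.037), and its values were lower in all 3 same-numbered pairs. It also passed without DS-5272 replicate 1 (log2 fold change −0.36, adjusted p = 0.039) and after quantile normalization (−0.62, adjusted p = 0.036), its alternatives spanning 0.036 to 0.284. The antisense gene Gm26577 shares 6.26% of its exon bases.

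Gata2, a zinc finger factor of stem cells and of the mast cell lineage, lies at chr6:88193891-88207032 in GRCm38. It was the least abundant of the 8, at 14.8, 13.6 and 10.3 FPKM with vehicle and at 16.8, 11.1 and 11.1 FPKM with DS-5272. The groups overlapped and the group means were 12.9 and 13.0 FPKM. The 95% interval of the log2 fold change ran from −0.48 to 0.48 (adjusted p = 0.999 from limma).

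Runx1, which binds DNA with its partner Cbfb and is needed for the formation of blood stem cells, lies at chr16:92601466-92826149 in GRCm38. It was at 35.2, 42.2 and 43.6 FPKM with vehicle and at 38.7, 47.8 and 50.9 FPKM with DS-5272. The groups overlapped, although each DS-5272 mouse was above the vehicle mouse of its number. The difference on the log2 scale was 0.18 (95% interval −0.16 to 0.51, adjusted p = 0.332 from limma), and after rescaling to a common total it was −0.09. Runx1 and Gata2 thus gave no called change in either direction.

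The makeup of the C/EBP family is given as a description. The summed FPKM of Cebpa, Cebpb, Cebpd and Cebpe was 179, 238 and 241 with vehicle and 280, 327 and 447 with DS-5272. The share of Cebpa in this sum was 14.4% ± 2.25 with vehicle and 6.86% ± 1.16 with DS-5272 (SD, n = 3), and the share of Cebpb was 45.2% ± 3.05 with vehicle and 54.9% ± 6.25 with DS-5272 (SD, n = 3). Neither share overlapped between the groups. The share of Cebpe was 18.6% ± 1.17 and 12.4% ± 2.85 (SD, n = 3), also without overlap, while that of Cebpd overlapped, at 24.1%, 20.4% and 21.1% with vehicle and 33.4%, 23.0% and 20.9% with DS-5272. These shares are within a mouse and do not depend on the scaling between libraries, and they describe mRNA only. They were not tested.

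**Figure D3:**
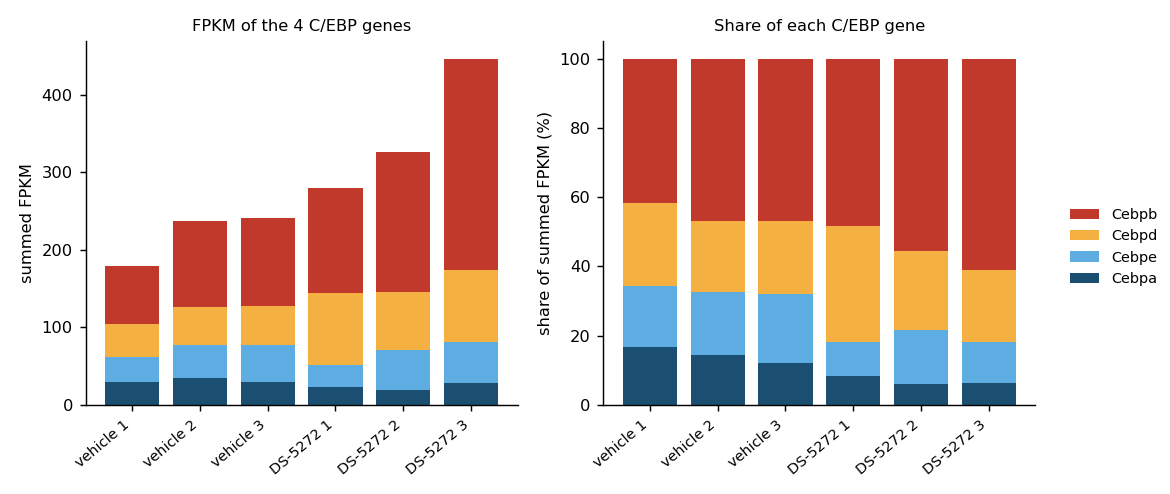
Stacked bars for each mouse give the FPKM of the 4 C/EBP genes (left) and their share of the sum in percent (right). The sum was 179 to 241 FPKM with vehicle and 280 to 447 FPKM with DS-5272, and the Cebpa share at the bottom of the right panel was 12.1% to 16.6% with vehicle and 6.00% to 8.18% with DS-5272.

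Ratios of a maturation factor to an earlier factor were computed within each mouse as a description. Cebpb to Myb was 0.329, 0.558 and 0.558 with vehicle and 0.687, 1.16 and 1.61 with DS-5272. Cebpb was thus below Myb in every vehicle mouse and in DS-5272 replicate 1, and above it in the other 2 treated mice. Cebpb to Cebpa was 3.22 ± 0.683 with vehicle and 8.22 ± 1.99 with DS-5272 (SD, n = 3), without overlap. Cebpe to Gata2 was 2.13, 3.19 and 4.68 with vehicle and 1.67, 4.59 and 4.75 with DS-5272, and these ranges overlapped. These ratios were not tested.

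The genes with the most similar profiles over the 6 mice differed between the factors. By Pearson's r of log2(FPKM + 1) over 6 samples, the nearest of the tested genes were Prr7 and Use1 for Cebpb (r = 0.999 each), Plbd1 (0.999) and LOC100862128 (0.998) for Cebpd, Odc1 (0.998) and Nt5c (0.995) for Cebpe, and Oxnad1 and 1600027N09Rik for Gfi1 (0.998 each). They were Gss and Dhx35 for Cebpa (0.986 and 0.984), Gria3 and Ppfia1 for Myb (0.996 each), Ankrd40 and Rabgap1 for Gata2 (0.985 and 0.983), and Ccnl1 and Aprt for Runx1 (0.997 each). Values of r this high are found by searching 11130 genes over 6 points, and r includes the difference between the groups.

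Partners and relatives of the factors were followed through lists that are described by their counts. Over all tested genes 24.2% were called higher and 22.0% lower, and with the replicate block 30.3% and 24.9%. Of 7 other C/EBP family members and dimer partners, 6 were tested and 1 was called higher, Batf2, a basic leucine zipper factor induced by interferon, from 2.89 ± 0.894 to 9.37 ± 3.21 FPKM (SD, n = 3, log2 fold change 1.40, adjusted p = 0.0069 from limma). With the replicate block 3 were called higher. Ddit3, which encodes the C/EBP dimer partner CHOP, was at 7.22, 29.5 and 48.2 FPKM with vehicle and 13.7, 64.8 and 69.3 FPKM with DS-5272 (adjusted p = 0.438 from limma), and the replicate block gave it an adjusted p of 0.0051.

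Of 12 relatives and cofactors of RUNX1, GFI1 and MYB, 8 were tested, 2 were called higher and 2 lower, beside 24.2% and 22.0% of all tested genes. Runx2, a paralog of Runx1, rose from 7.89 ± 1.07 to 18.2 ± 6.23 FPKM (SD, n = 3, log2 fold change 1.07, adjusted p = 0.012 from limma), and Ep300, a coactivator of Myb and the C/EBP proteins, rose by 0.49. Kdm1a, the demethylase that works with Gfi1, fell by 0.37 (adjusted p = 0.030 from limma), and the corepressor Cbfa2t3 fell by 0.74 (adjusted p = 0.017 from limma). Without vehicle replicate 1 or 2 the count called lower was 0, and with libraries set to the same total 1 gene was called higher and 4 lower. Runx3 and Cbfb had log2 fold changes of −0.26 and −0.31 (adjusted p = 0.054 and 0.056 from limma).

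Of 12 relatives and partners of PU.1, 10 were tested and 1 was called higher, beside 24.2% of all tested genes. This was Irf8, the monocyte factor that binds DNA with PU.1, from 94.5 ± 19.8 to 222 ± 13.3 FPKM (SD, n = 3, log2 fold change 1.24, adjusted p = 0.0032 from limma). With the replicate block, beside 30.3% of all tested genes, 4 were called higher. Irf8 is also a member of the list of monocyte and macrophage factors, in which 6 of 9 tested genes were called higher, among them Nab2, a corepressor of EGR factors, and the nuclear receptor Nr4a1, with log2 fold changes of 2.55 and 2.03. Nr4a1 and Egr2, both among these 6, are also the 2 called immediate early genes. Both were lowest in replicate 1 of each group. Maf, also among these 6, had a vehicle mean of 0.391 FPKM and reached the filter of a mean of 1 FPKM only through the DS-5272 mice.

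Of 16 stem and progenitor factors outside the set, 8 were tested and 3 were called higher, beside 24.2% of all tested genes. These were Bcl11a, Zfpm1 and Lmo2, with log2 fold changes of 1.12, 0.97 and 0.92. Bcl11a went from 0.509 ± 0.133 to 2.28 ± 0.0979 FPKM and Zfpm1 from 2.08 ± 0.654 to 5.02 ± 1.33 FPKM (SD, n = 3). Bcl11a thus reached the filter of a mean of 1 FPKM only through the DS-5272 mice. The count called higher was 5 with the replicate block, without DS-5272 replicate 1 or with no filter on low genes, and 1 when the filter was raised to a mean of 5 FPKM. Under the block or with no filter 1 gene was called lower. Lmo2, a bridging protein of stem cell complexes with Gata2, rose from 168 ± 37.1 to 314 ± 27.1 FPKM (SD, n = 3, adjusted p = 0.0073 from limma), while Gata2 itself did not pass. Meis1, a cofactor of the Hox genes in MLL leukemia, was at 66.1 to 80.5 FPKM with vehicle and 69.2 to 110 FPKM with DS-5272 (adjusted p = 0.310 from limma).

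Of 10 negative regulators of C/EBP and PU.1 activity, 5 were tested and 1 was called higher, beside 24.2% of all tested genes. This was Id2, an inhibitor of helix-loop-helix factors, from 8.20 ± 1.35 to 23.5 ± 6.58 FPKM (SD, n = 3, adjusted p = 0.0041 from limma). With the replicate block, beside 30.3% of all tested genes, 4 were called higher. They include Trib1, a scaffold protein through which C/EBPα is degraded, at 2.59, 33.4 and 41.0 FPKM with vehicle and at 38.6, 129 and 186 FPKM with DS-5272 (log2 fold change 2.51), with an adjusted p of 0.083 from limma and of 0.0022 under the block. Trib1 overlapped between the groups and was lowest in replicate 1 on both sides, as Cebpb and the immediate early genes were.

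Genes that C/EBP proteins and PU.1 are known to activate were measured as well. The counts below stand beside 24.2% of all tested genes called higher and 22.0% called lower. All 10 tested target genes, which are surface receptors or their subunits and Il1rn, the secreted interleukin-1 receptor antagonist, were called higher, with a median log2 fold change of 1.36. Cd14, Il1rn and Itgam had the largest rises, and the growth factor receptors Csf1r, Csf3r and Csf2ra rose by 1.91, 1.36 and 1.35, each called by limma. Csf3r, the receptor for granulocyte colony-stimulating factor, was at 48.0, 43.3 and 47.7 FPKM with vehicle and 119, 103 and 143 FPKM with DS-5272. Granule genes split, with 10 of 12 tested secondary and tertiary granule genes called higher, led by Mmp9, Mmp8 and Ltf, and 5 of 7 tested primary granule genes called lower, led by Mpo (log2 fold change −5.07) and Elane (−2.54), with Ctsc called higher (2.86). Ly6g, among the secondary and tertiary granule genes called higher, had a vehicle mean of 0.207 FPKM and reached the filter only through the DS-5272 mice. The count of primary granule genes called lower was 3, 2 and 2 without vehicle replicates 1, 2 and 3. Among 9 tested progenitor receptors and Myb targets, 4 were called lower, with Flt3, Ccnb1 and Kit at −3.81, −2.83 and −1.96, and 2 higher, Ckb (4.11) and Cd93 (0.82). The count called higher was 1 without vehicle replicate 2 or 3, without DS-5272 replicate 1 or 3, with libraries set to the same total or upper quartile, with quantile normalization and with no filter on low genes. Cd34, from 70.3 to 106 FPKM with vehicle and 85.1 to 104 FPKM with DS-5272, did not pass.

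**Figure D4:**
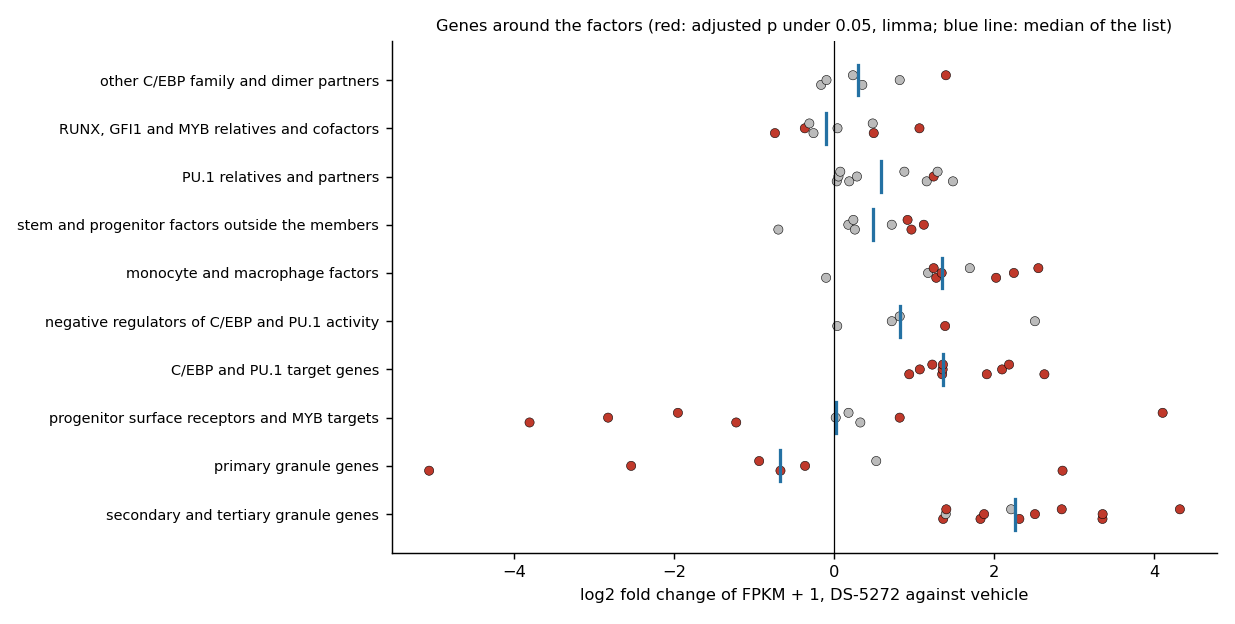
Each point is 1 tested gene of a list, placed by its log2 fold change of FPKM + 1, DS-5272 against vehicle, in red where the adjusted p from limma was under 0.05, and blue lines mark the list medians. All 10 target genes of C/EBP and PU.1 lie to the right of 0 in red, the secondary and tertiary granule genes have a median of 2.26, and the relatives of RUNX1, GFI1 and MYB have a median of −0.11.

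Markers of other cells were measured beside these results. Of 12 bone marrow macrophage markers, all tested, 4 were called higher, beside 24.2% of all tested genes. The sum over all 12 was 63.1 to 114 FPKM with vehicle and 140 to 451 FPKM with DS-5272, highest in DS-5272 replicate 1. Vcam1 was the most abundant of them, at 36.6 to 82.8 FPKM with vehicle and 74.8 to 143 FPKM with DS-5272. It overlapped between the groups and did not pass. The study reports VCAM-1 upregulation by DS-5272 in c-Kit+ cells, measured there as protein by single-cell mass cytometry and not as bulk mRNA. When the mouse with the highest sum was left out, Cebpb, Cebpd and Gfi1 differed by 1.17, 0.81 and −0.99 on the log2 scale. All 3 remained called (limma, adjusted p = 0.017, 0.0093 and 0.0041). That fit did not remove the macrophage difference, since 4 of the 12 markers were still called higher in it. It therefore cannot show whether macrophages had a part in these 3 calls. Erythroid markers summed to 2.53 to 4.70 FPKM with vehicle and 12.8 to 147 FPKM with DS-5272, with 2 of 3 tested called higher, and 0 without vehicle replicate 2. Hba-a2, called among these, had a vehicle mean of 0.564 FPKM and reached the filter only through the DS-5272 mice. T cell markers summed to 2.68 to 2.92 FPKM with vehicle and 3.75 to 6.40 FPKM with DS-5272. NK cell markers summed to 0.556 to 0.992 and 1.73 to 3.97 FPKM. Both sums were higher in every treated mouse than in any vehicle mouse. Most of the vehicle T cell sum was Lat, which did not pass (mean 2.34 FPKM with vehicle and 2.89 FPKM with DS-5272). Cd4 was at 3.28, 0.214 and 0.314 FPKM with DS-5272, and the T cell sum was highest in replicate 1. The other T cell markers, Cd3d, Cd3e, Cd3g, Cd8a, Cd8b1 and Cd5, were under 1 FPKM in every mouse. B cell markers summed to 4.59 to 5.40 FPKM with vehicle and 3.58 to 4.58 FPKM with DS-5272, most of it Cd79b, at 3.90 to 4.79 and 3.15 to 3.88 FPKM. Of the T cell, NK cell and B cell markers, 1, 0 and 1 passed the filter on low values. Of 9 mast cell and basophil markers, Fcer1a and Tpsb2 were at 0 in every mouse, Hdc was called higher and Mcpt8 lower. Of 9 eosinophil markers, Epx was at most 0.10 FPKM, and Ear2 was called higher. Ear2 had a vehicle mean of 0.910 FPKM and reached the filter of a mean of 1 FPKM only through the DS-5272 mice. Megakaryocyte markers summed to 2.94 to 3.16 FPKM with vehicle and 6.22 to 8.70 FPKM with DS-5272, also without overlap. Of 8 stromal and endothelial markers 6 were under 1 FPKM in every mouse and Pecam1 was called higher, though not with libraries set to the same total or upper quartile. The part of these cells in the levels of the 8 factors was not tested.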

How the data were processed

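The deposited values are gene FPKM, which the authors derived from strand-specific paired-end libraries trimmed with cutadapt 1.8.1, aligned to GRCm38 reference transcripts with TopHat2 2.1.1 and quantified with Cufflinks 2.2.1. The annotation release and the strand setting are not given in the sources used here. All 6 columns matched a sample title. Of 26632 lines, 433 joined several genes, and list genes found only there were not followed, and 435 names on several lines were summed.

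Samples were grouped by title. The groups were compared with limma 3.58.1 in R 4.3.3 (lmFit, eBayes with trend, two-sided) on log2(FPKM + 1), a scale that understates the change of low genes, for genes whose mean over the 6 mice reached 1 FPKM. Among the list genes called higher, Bcl11a, Maf, Ly6g, Ear2 and Hba-a2 had a vehicle mean under 1 FPKM. They passed this filter only through the group where they were high. No count model was used. The fit was tested on simulated data in which 200 of 11130 genes were changed. It recovered 58.9% of the changes of log2 size 1 and 89.5% of those of size 2. Far more genes were called in the real data, so these shares need not hold there. Absolute depth is not in the table, and no counting intervals were derived. Python 3.11.15 with pandas 2.3.3 and matplotlib 3.10.9 made the summaries. Gene positions and exon overlaps come from GENCODE on GRCm38 and promoters from RefSeq (GRCm38.p6).

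The main fit was unpaired and did not use the replicate number. For the replicate block and the same-numbered pairs the numbers were taken as pairing the mice. Deviations from the group means correlated by 0.66, 0.21 and 0.43 between same-numbered mice. Between mice of different numbers the values ran from −0.58 to 0.34, and replicates 2 and 3 were not told apart, since vehicle replicate 2 correlated more with DS-5272 replicate 3 (0.34) than with replicate 2, so the pairing rests mainly on replicate 1. The labels name no shared litter or day. The pairing was thus read from the same values that the block was then applied to, and deviations from a mean of 3 mice depend on each other. Calls that appear only under the block rest on that choice. Members and lists were chosen with earlier results of these data known. Named genes were the members, up to 3 called genes per list and direction with the largest change, label checks and the 2 nearest profiles per factor. A list gene that met this rule is not reported here. Ddit3, Runx3, Cbfb, Meis1, Trib1, Csf1r, Csf3r, Csf2ra, Cd34, Fcer1a, Tpsb2, Epx, Vcam1, Lat, Cd4, Cd79b, Maf, Ly6g and the genes overlapping members were named after their values were seen.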

Additional observations from a re-analysis of the deposited data

How the results depend on the processing

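The calls of Cebpd and Gfi1 held in all 16 alternatives run on them. With no filter on low genes and when log2 fold changes of at least 1 were required, 1 and 0 factors were called higher in place of 2, and with that requirement 0 were called lower in place of 1. The count called lower was 2 with libraries scaled by upper quartile, by median ratio or by total and with the replicate block, and 3 after quantile normalization. With 1 mouse left out, 1 to 2 factors were called higher and 1 to 2 lower. The log2 fold change of Gata2, which was −0.0002, turned to 0.10 and 0.04 without vehicle replicates 1 and 2 and to 0.09 and 0.09 without DS-5272 replicates 2 and 3. That of Runx1 turned to −0.0856 after rescaling to a common total. That of Cebpe turned to −0.0741, −0.20 and −0.10 with upper quartile, total and quantile scaling, to −0.11 without vehicle replicate 1 and to −0.07 and −0.09 without DS-5272 replicates 2 and 3. With 1 mouse left out, Gata2 ranged from −0.18 to 0.10 and Cebpe from −0.11 to 0.35. None of these values passed the threshold, and the cause was not tested. Rescaling to a common total or upper quartile moved the median log2 fold change of all genes by −0.24 and −0.12, and the changes of the factors are read relative to that shift. The replicate block changed no call of a factor other than that of Myb. The lower depth of the DS-5272 libraries limits low genes most, and all 8 factors were above 10 FPKM in every mouse.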
